A study of Mus musculus with 12 samples.

Results

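The genes described here are 9 genes that mark the projection neurons of the striatum: Drd1, Drd2, Ppp1r1b, Adora2a, Pde10a, Rgs9, Penk, Tac1 and Foxp1. They were chosen by symbol, matched through their Ensembl identifiers, out of 38924 genes in the deposited tables, and all 9 passed the low-count filter that left 16493 genes for testing. RNA was measured in 12 whole brains of mice aged 6 weeks, with 3 mice and 1 library each for wild type (WT) and for homozygotes of the h1, h2 and h4 alleles of Rorb, the gene of a nuclear receptor that acts as a transcription factor. The labels name C57BL/6J as the background of WT and of Rorb h1/h1, B6(Cg)-Tyrc-2J/J as that of Rorb h2/h2, and B6.129S7-Il1r1tm1Imx/J as that of Rorb h4/h4. This gives h2 and h4 a background strain that WT does not share, and for these mutants the allele and the strain cannot be told apart. RNA came from the whole brain, so fewer striatal neurons and less RNA per striatal neuron cannot be told apart either.

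Striatal projection neurons are inhibitory cells that form most of the striatum and carry its output. Those of the direct pathway project to the substantia nigra pars reticulata and the internal pallidum and carry the D1 dopamine receptor, which raises cAMP. Those of the indirect pathway project to the external pallidum and carry the D2 dopamine receptor, which lowers cAMP, together with an adenosine receptor that raises it. In both types cAMP activates protein kinase A, which phosphorylates the Ppp1r1b product DARPP-32 and turns it into an inhibitor of protein phosphatase 1.

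Libraries held between 14513825 and 24694178 expected counts. Rorb itself lay between 16.3 and 18.4 CPM (counts scaled to the library total) in WT, and between 22.6 and 33.1 in h1. It lay between 22.6 and 31.1 in h2, and between 8.65 and 9.11 in h4. Xist, which is transcribed from the inactive X chromosome, was above 100 CPM in all 3 WT libraries, in h1 replicate 1, in h2 replicate 2 and in h4 replicates 1 and 3, and near 0 in the other 5. Of the h4 libraries, replicate 2 stood apart in the 9 genes, and it was also the only one of that genotype with low Xist. Fold changes of the 9 genes in h4 against WT are therefore given with and without it, and those of other genes where its absence ends a call. Because this library was singled out by its values in the 9 genes, results without it, adjusted p included, are a description.

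Upstream sequence was taken from RefSeq (GRCm38.p6) for 6 of the 9 genes, with 10 start sites in all, and the windows searched were the 250 bases before each start. Windows of Ppp1r1b, Adora2a and Penk were not used here. The half-site bound by many nuclear receptors, AGGTCA, was in 0 of the 10 windows on either strand, against 14.0% of 32851 windows of all genes. The longer form TAGGTCA, which contains it, was in 0 of 10 against 2.23%. The full cAMP response element TGACGTCA was in 0 of 10 against 1.55%, and its half-site CGTCA, which lies within it, was in 2 of 10 against 17.8%. Tac1 held the half-site 197 and 43 bases before its start, and 1 of the 3 Foxp1 windows held it 224 bases before its start. The windows of Pde10a are printed because this gene set h4 apart from h1, and those of Foxp1 and Tac1 because they held the half-site, which is in capitals. Each is cut to the stretch that overlaps no exon of the GENCODE M21 annotation, so the Tac1 site nearer the start is not in it. Both Pde10a stretches and the Foxp1 stretch lie within the annotated span of their own gene, outside its exons, and the Tac1 stretch lies just before its gene. A match is a description of letters, not evidence of binding.
Pde10a first window, chr17:8801495-8801692, + strand: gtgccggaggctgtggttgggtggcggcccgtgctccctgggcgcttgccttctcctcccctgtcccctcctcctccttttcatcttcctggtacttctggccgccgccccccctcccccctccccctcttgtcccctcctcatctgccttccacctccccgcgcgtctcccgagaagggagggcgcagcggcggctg
Pde10a second window, chr17:8849735-8849984, + strand: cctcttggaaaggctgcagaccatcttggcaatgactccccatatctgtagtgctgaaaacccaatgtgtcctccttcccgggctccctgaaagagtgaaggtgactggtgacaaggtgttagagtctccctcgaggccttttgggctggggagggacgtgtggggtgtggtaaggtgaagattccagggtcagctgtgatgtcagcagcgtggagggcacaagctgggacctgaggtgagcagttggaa
Foxp1, chr6:99028314-99028548, - strand: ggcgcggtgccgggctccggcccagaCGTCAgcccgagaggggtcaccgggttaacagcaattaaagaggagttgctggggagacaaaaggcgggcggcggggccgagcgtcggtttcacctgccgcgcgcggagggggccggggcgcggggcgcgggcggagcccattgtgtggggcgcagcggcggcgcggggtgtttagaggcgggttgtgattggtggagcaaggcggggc
Tac1, chr6:7554811-7554878, + strand: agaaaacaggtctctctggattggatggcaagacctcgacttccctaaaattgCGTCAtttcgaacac

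Compared per unit of transcript length, in TPM, a unit scaled to transcript length and library, the 9 genes spanned more than an order of magnitude. Penk, the precursor of the enkephalins, was highest with a mean of 311 TPM over 12 libraries and a range of 287.5 to 333. Ppp1r1b followed at 249 TPM (227 to 267). Tac1, the precursor of substance P, had 86.5 TPM (75.3 to 93.7). The ranges of these 3 genes did not overlap. Pde10a at 58.8 TPM (45.2 to 65.1) and Rgs9 at 52.2 TPM (43.1 to 61.5) overlapped across libraries, and the highest Foxp1 library, at 43.4 TPM, passed the lowest Rgs9 library, although the Foxp1 mean was 36.2 TPM. The receptors were lowest: Adora2a had 22.3 TPM (19.6 to 24.5), Drd1 19.5 TPM (17.1 to 20.8) and Drd2 18.9 TPM (15.7 to 22.9), and their ranges overlapped. Penk, Tac1 and Foxp1 are also expressed by many neurons outside the striatum, so their whole-brain level is not that of striatal neurons alone.

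Drd1 encodes the dopamine receptor of the direct pathway (ENSMUSG00000021478, GRCm38 chr13:54051183-54055705). WT replicates 1 to 3 had 33.3, 33.7 and 34.9 CPM, h1 mice had 34.6, 36.4 and 34.0, h2 mice had 36.5, 35.7 and 36.4, and h4 mice had 32.1, 37.4 and 30.5. All 3 h2 libraries lay above all 3 WT libraries, while the h4 libraries spanned values both below and above every WT library. The log2 fold change against WT was 0.05 for h1, 0.09 for h2 and -0.03 for h4, with standard errors of 0.0624, 0.0626 and 0.0637, and edgeR's quasi-likelihood test with Benjamini-Hochberg adjustment over all genes gave adjusted p = 0.85, 0.631 and 0.838. The log2 fold change of h4 without replicate 2 was -0.13 (edgeR adjusted p = 0.273).

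Tac1 marks the same pathway (ENSMUSG00000061762, chr6:7554879-7565834). WT mice had 33.7, 34.3 and 37.0 CPM, h1 mice 35.8, 36.2 and 38.2, h2 mice 40.2, 31.1 and 34.5, and h4 mice 33.5, 37.0 and 34.4. The genotypes overlapped throughout, and here h2, not h4, held the widest range. Fold changes against WT lay between -0.01 and 0.08 on the log2 scale, with edgeR adjusted p = 0.777 in h1, 0.997 in h2 and 0.973 in h4. The h4 value without replicate 2 was -0.06 (edgeR adjusted p = 0.78).

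Drd2 encodes the dopamine receptor of the indirect pathway and is also made by dopamine neurons (ENSMUSG00000032259, chr9:49340627-49408177). It had the lowest counts of the 9 genes, 167 to 357 per library. In CPM, WT mice had 13.9, 13.1 and 13.4, h1 mice 14.5, 11.2 and 14.1, h2 mice 11.5, 14.5 and 13.3, and h4 mice 11.7, 16.7 and 14.1. The genotypes overlapped, and the widest spread was again in h4, with replicate 2 highest of all 12 libraries. The 95% interval of the log2 fold change ran from -0.25 to 0.23 in h1, from -0.27 to 0.21 in h2 and from -0.18 to 0.31 in h4, so changes of that size were not detectable for this gene. The h4 estimate was 0.06, and without replicate 2 it was -0.08 (edgeR adjusted p = 0.789).

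Adora2a, the adenosine receptor gene of the indirect pathway (ENSMUSG00000020178, chr10:75316877-75334784), stood at 27.6, 25.4 and 26.2 CPM in the WT mice. The h1 mice had 28.4, 24.7 and 28.6, the h2 mice 30.4, 27.8 and 30.1, and the h4 mice 24.7, 31.0 and 28.1. As for Drd1, all 3 h2 libraries lay above all 3 WT libraries. The log2 fold change of h2 against WT was 0.15 (SE 0.0733), which did not pass the test (edgeR adjusted p = 0.42). That of h4 was 0.07 with all libraries and -0.01 without replicate 2 (edgeR adjusted p = 0.956).

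Penk, a peptide gene of the indirect pathway (ENSMUSG00000045573, chr4:4133531-4138819), stood at 149, 155 and 161 CPM in the WT mice. The h1 mice had 164, 160.3 and 168, the h2 mice 160.4, 158 and 159, and the h4 mice 148, 173 and 150.0. The h2 mice were alike and the h4 mice were not, with replicate 2 above every other library. The log2 fold change was 0.10 in h1 (SE 0.0473, edgeR adjusted p = 0.523), 0.04 in h2 and 0.01 in h4. With replicate 2 left out, the h4 value was -0.07 (edgeR adjusted p = 0.368). The ratio of Tac1 to Penk CPM, 1 peptide of each pathway, averaged 0.226 for WT, 0.224 for h1, 0.221 for h2 and 0.223 for h4, with SDs of 0.0042, 0.0047, 0.027 and 0.0083 (n = 3 each).

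The ratio of the dopamine receptors, Drd1 to Drd2 CPM, averaged 2.52 ± 0.11 for WT, 2.68 ± 0.48 for h1, 2.79 ± 0.35 for h2 and 2.38 ± 0.32 for h4 (SD, n = 3 each). A shift of pathway balance within these spreads cannot be told from variation among mice. For Adora2a to Drd2, both of the indirect pathway, the means were 1.96, 2.06, 2.28 and 1.99 in the same order. Over 7 such ratios and 3 mutants, 21 comparisons with WT in all, 2-sided exact permutation tests gave adjusted p between 0.525 and 0.9. The smallest p that 3 against 3 libraries can give is 0.1, so no ratio could pass at 0.05, however large its shift.

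Ppp1r1b, the gene of DARPP-32 (ENSMUSG00000061718, chr11:98348404-98357796), was measured at 173, 180.4 and 174 CPM in the WT mice. Its values were 196, 177 and 186 for h1, 183, 178 and 185 for h2, and 165, 202 and 174 for h4. The WT mice lay close together, and h4 held both the lowest and the highest value of the 12 libraries. Against WT the log2 fold change was 0.10 in h1, 0.05 in h2 and 0.03 in h4 (SE 0.0602, 0.0604 and 0.0607), with edgeR adjusted p = 0.657, 0.822 and 0.869. Leaving out h4 replicate 2 gave -0.07 in h4 (adjusted p = 0.455).

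Rgs9 encodes a regulator that speeds GTP hydrolysis by inhibitory G proteins (ENSMUSG00000020599, chr11:109225355-109298129). The WT mice had 59.2, 60.0 and 63.3 CPM, those of h1 62.2, 55.6 and 58.4, those of h2 62.3, 57.5 and 64.6, and those of h4 50.7, 71.0 and 54.4. In h4, replicate 2 exceeded and the other 2 libraries fell short of every library of the other genotypes. The log2 fold change of h4 against WT was -0.06 (SE 0.112, edgeR adjusted p = 0.849), and without h4 replicate 2 it was -0.23 (SE 0.0575, adjusted p = 0.023). The latter is a description, since replicate 2 was singled out by its values in these genes.

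Pde10a encodes a phosphodiesterase that degrades cAMP and cGMP and is concentrated in these neurons (ENSMUSG00000023868, chr17:8525372-8986648). In CPM, its values were 221, 229.8 and 215 for WT, 246, 229 and 245 for h1, 239.7, 227 and 234 for h2, and 175, 222 and 189 for h4. Of the 6 h1 and h2 libraries, all but h1 replicate 2 and h2 replicate 2 lay above every WT library. In h4, replicates 1 and 3 lay below all 9 libraries of the other genotypes, and replicate 2 lay within the WT range but below every h1 and h2 library. The log2 difference of h4 from h1 was -0.31, with Pde10a lower in every h4 library (SE 0.0704, edgeR adjusted p = 0.029). Against h2 the difference was -0.26 (SE 0.0705, adjusted p = 0.0702), and against WT it was -0.19 (SE 0.0705, adjusted p = 0.173); neither passed the test. Without h4 replicate 2 the log2 differences were -0.42 from h1, -0.37 from h2 and -0.30 from WT, with edgeR adjusted p = 2.96e-06, 1.7e-05 and 0.000214. These 3 comparisons share the h4 libraries. Replicate 2 was singled out by its values in these genes, so the adjusted p without it are a description and no support. The call against h1 was lost without h1 replicate 1 (adjusted p = 0.0887), h1 replicate 3 (0.0959), h2 replicate 3 (0.0521) or h4 replicate 3 (0.0958), and when only the h1 and h4 libraries were fitted (0.187).

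Foxp1 encodes a transcription factor found in striatal neurons of both pathways and in cortical neurons (ENSMUSG00000030067, chr6:98925338-99522721). WT mice had 87.9, 84.9 and 77.9 CPM, h1 mice 82.3, 78.7 and 81.1, h2 mice 79.9, 82.8 and 80.5, and h4 mice 72.9, 77.7 and 73.1. Each h4 library was under all 9 others, though the highest h4 and the lowest WT library were only 77.7 and 77.9 CPM, and 77.6 and 77.8 with TMM-adjusted library totals (totals corrected for composition). Foxp1 fell in h4 against WT by 0.17 on the log2 scale (SE 0.0455, edgeR adjusted p = 0.0261), from a mean of 83.5 ± 5.13 to 74.6 ± 2.69 CPM (SD, n = 3 each). The log2 fold change was -0.21 (adjusted p = 0.0142) without h4 replicate 2. The difference from h1 was -0.13 (adjusted p = 0.0909) and that from h2 was -0.13 (adjusted p = 0.122). The call against WT was lost without WT replicate 1 (log2 fold change -0.13, adjusted p = 0.2), WT replicate 2 (0.106), h4 replicate 1 (0.105) or h4 replicate 3 (0.107), and with limma on log2 TPM (0.331). The deposited mean transcript length of Foxp1 ran from 3943 to 4711 bases within WT alone, and its TPM varied more among WT mice (38.9 ± 5.94, SD, n = 3) than its CPM did.

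**Figure D1:**
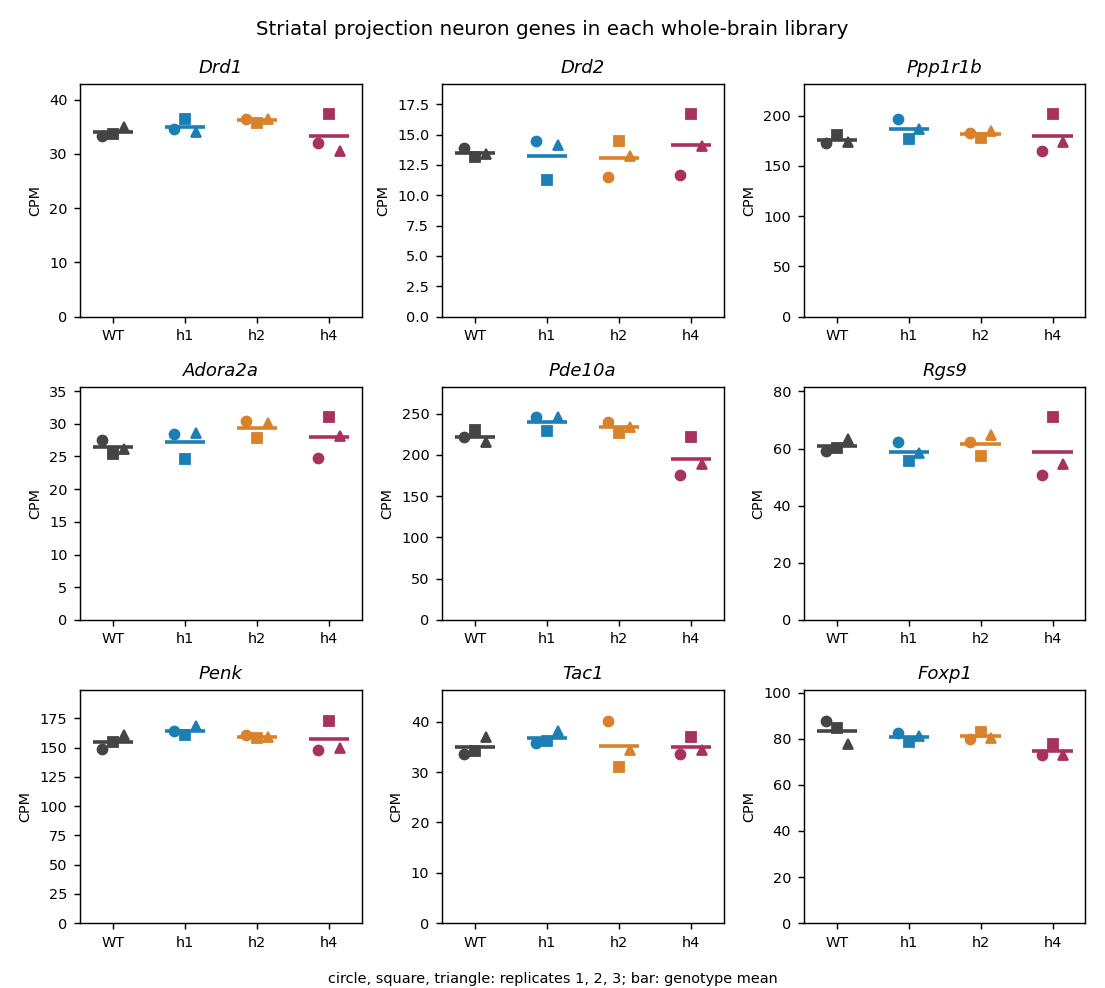
Level of each of the 9 genes in CPM (vertical axis, from 0) in the 12 libraries by genotype (horizontal axis); circles, squares and triangles are replicates 1, 2 and 3 and the bar is the genotype mean. The square of h4 (replicate 2) is the highest of the 3 h4 libraries in all 9 panels, and all 3 h4 points of Foxp1 lie below the other genotypes.

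Counted over the 9 genes, 0 passed the test in h1 against WT, where 0.625% of all genes did, and 0 in h2 against WT, where 0.679% did. In h4 against WT, 1 of 9 passed, Foxp1, against 4.55% of all genes. Among mutants, 0 passed in h2 against h1 (0.722% of all genes), 1 in h4 against h1 (Pde10a; 4.64%) and 0 in h4 against h2 (3.22%). The mean of the 3 mutants against WT gave 0 (1.1% of all genes), and the test for any difference among the 4 genotypes gave 0 (6.67%), with the smallest adjusted p at 0.0638 for Pde10a and 0.0643 for Foxp1. At an unadjusted p under 0.05 the counts were 0 in h1 and 1 in h2 against WT (Adora2a), 0 in h2 against h1, 1 for the mean of the mutants (Foxp1), and 2 each in the other comparisons (Pde10a and Foxp1). Without h4 replicate 2, edgeR called 3 of 9 in h4 against WT (Foxp1, Pde10a and Rgs9; 4.04% of all genes in that fit). It then called 4 of 9 against h1 (Pde10a, Penk, Ppp1r1b and Foxp1; 4.64%) and 2 of 9 against h2 (Pde10a and Rgs9; 2.62%), all of them lower. The library was singled out for its values in these genes, so these counts are a description. DESeq2, on all libraries, called 0 of 9 in h1 (1.05% of all genes with an adjusted p), 0 in h2 (0.869%) and 2 in h4 (6.35%) against WT. It called 0 in h2 against h1 (0.969%), 1 in h4 against h1 (5.67%) and 1 in h4 against h2 (4.72%). For the mean of the mutants it called 0 (2.62%), and for any difference 1 (8.62%). Genes whose libraries did not overlap those of WT numbered 0 of 9 in h1 (14.9% of all genes), 2 in h2 (Drd1 and Adora2a, both higher; 15.2%) and 1 in h4 (Foxp1, lower; 21.3%). With TMM-adjusted totals the h1 count was 2 (Pde10a and Penk, both higher; 14.5%), and h2 and h4 again had 2 (15.6%) and 1 (21.2%). With 9 genes, counts of 0 to 2 lie near these shares and are no result about the 9 genes. The median log2 fold change of the 9 genes was 0.06 in h1, 0.04 in h2 and -0.01 in h4, beside 0.000444, 0.00339 and 0.00908 over all genes tested.

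**Figure D2:**
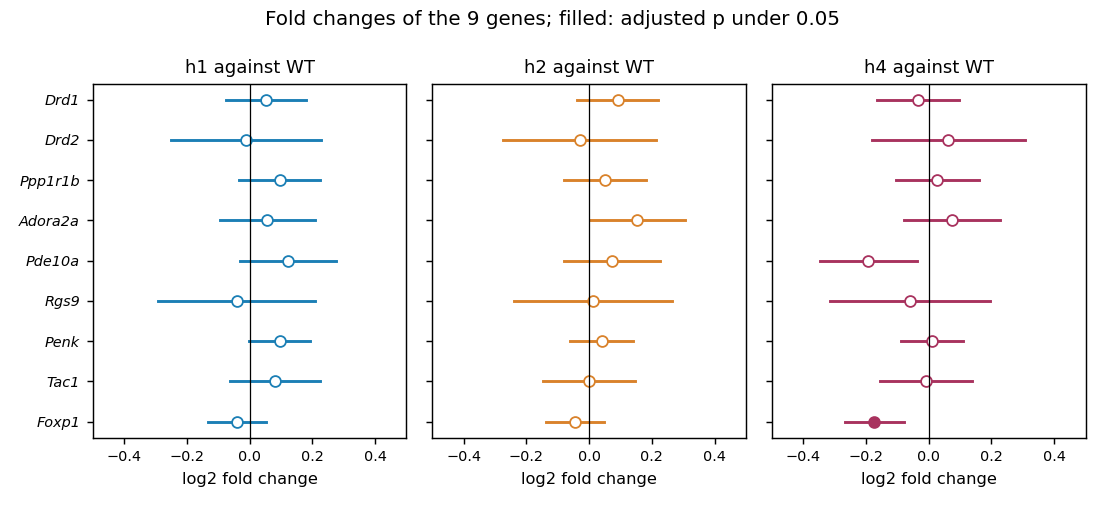
Log2 fold change against WT (horizontal axis) of each gene (vertical axis) in h1, h2 and h4; lines are 95% intervals from the edgeR fit and filled points have an adjusted p under 0.05. Only Foxp1 in h4 is filled; the interval of Pde10a in h4, -0.35 to -0.04, also lies below 0 but did not pass adjustment.

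In these genes the h4 mice differed more from each other than the mice of the other genotypes did. The SD of log2 CPM had a median over the 9 genes of 0.05 for WT, 0.058 for h1, 0.039 for h2 and 0.151 for h4. Over the 10434 tested genes that averaged 10 CPM or more, the median SD was 0.058, 0.052, 0.058 and 0.056 in the same order. The spread was widest in h4 for 7 of the 9 genes, whereas h4 had the widest spread for 26% of those 10434 genes. It reached 0.254 for Rgs9, 0.249 for Drd2 and 0.174 for Pde10a, and the exceptions were Tac1, widest in h2 at 0.184, and Foxp1, widest in WT at 0.089.

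**Figure D3:**
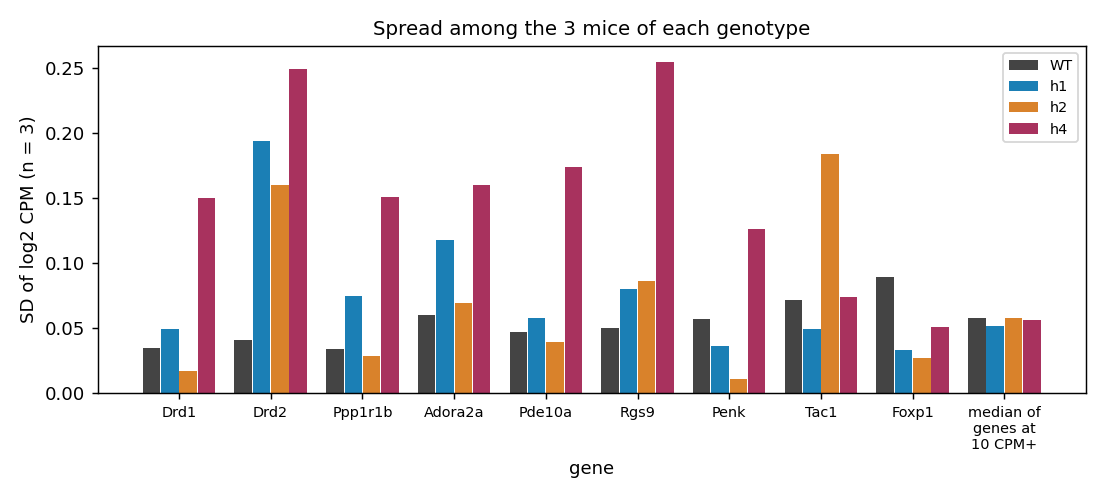
SD of log2 CPM over 3 mice (vertical axis) for each gene and, at the right, the median over 10434 genes with at least 10 CPM, by genotype (bar colour). The h4 bar is tallest for 7 genes and reaches 0.254 for Rgs9, while the 4 medians at the right lie between 0.052 and 0.058.

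Within a genotype the genes deviated together from mouse to mouse. Pearson's r of their deviations from the genotype mean had a median of 0.596 over the 36 pairs of genes, with 34 pairs above 0, whereas pairs of all tested genes at 10 CPM or more had a median of 0.00511. The closest pair was Ppp1r1b and Pde10a (0.958), followed by Ppp1r1b and Rgs9 (0.935). These values are a description over 12 libraries and lean on h4: without h4 replicate 2 the median was 0.292, and without any h4 library it was 0.26, with 27 pairs above 0. The pair Ppp1r1b and Pde10a still stood at 0.823 without h4, but Drd1 and Drd2 went from 0.247 to -0.741, and Drd1 and Pde10a from 0.597 to -0.612.

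The mean log2 CPM of the 9 genes was 5.96, 5.96 and 5.97 for WT, 6.04, 5.93 and 6.03 for h1, 6.02, 5.97 and 6.02 for h2, and 5.81, 6.10 and 5.89 for h4. WT mice thus lay within 0.01 of each other, and h4 mice within 0.29. Without Penk, Tac1 and Foxp1 the h4 values were 5.63, 5.99 and 5.74 and the WT values 5.81, 5.80 and 5.81, so the order of the h4 mice was the same. The list of 17 further genes of both projection neuron types, none of them among the 9, had 6.22, 6.44 and 6.25 in h4, against 6.34 to 6.42 in WT, 6.34 to 6.40 in h1 and 6.34 to 6.41 in h2. Replicate 2 was again the highest of the h4 mice and the other 2 lay below every other library.

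Markers of the cerebellum went the other way within h4. Their mean log2 CPM was 6.39 and 6.49 in h4 replicates 1 and 3 and 6.04 in replicate 2, which is above and below the 6.11 to 6.34 of the other genotypes. The opposition rests on replicate 2. Over 12 libraries, within genotypes, the cerebellar level correlated with that of the 9 genes at r = -0.726, but at 0.45 without this library. The summed CPM of the 10 cerebellar genes was 1173 to 1342 in WT, 1144 to 1163 for h1, 1187 to 1249 for h2 and 1091 to 1468 for h4, and 0 of 10 passed the test in h4 against WT, but 4 rose without h4 replicate 2. None of the 10 was at 0 in any library. Among them, Gabra6, a GABA receptor subunit of granule cells, had a log2 fold change of 0.20 (adjusted p = 0.248), and 0.29 without h4 replicate 2 (0.0042), and Pcp2, a Purkinje cell gene, had -0.18 (0.344). Cortical projection neuron markers had a negative fold change in h4 against WT in 7 of 7 genes. Of these, 2 of 7 fell, and 1 of 7 without h4 replicate 2. Tbr1, a transcription factor gene among them, fell by 0.19 on the log2 scale (edgeR adjusted p = 0.0341); without h4 replicate 2 it did not pass (-0.20, 0.0554). The summed CPM of the list was 824 to 879.7 in WT and 773 to 813 in h4. Astrocyte markers rose in 4 of 6 cases (3 without h4 replicate 2), led by Aldh1l1 (0.28, adjusted p = 0.00123) and Gfap (0.38, 0.00172). Slc1a2, a glutamate transporter gene and the most abundant of the list, had lower CPM in all 3 h4 libraries than in WT, with means of 2419 and 2649 CPM (-0.14, adjusted p = 0.182, not passed), and it fell against h1 (-0.24, 0.0279). The summed CPM of the list was 4260 to 4357 in WT and 4261 to 4397 in h4. The part of tissue make-up in the h4 values of the 9 genes was not tested directly. With the level of the 17 further striatal genes as a covariate, the Foxp1 difference from WT was -0.14 (adjusted p = 0.132) and the Pde10a difference from h1 was -0.21 (adjusted p = 0.00171). With the cerebellar level as a covariate, they were -0.16 (adjusted p = 0.0349) and -0.21 (adjusted p = 0.0229). Both covariates were chosen after the data were seen. With Xist, high or low, as the covariate, the differences were -0.17 (adjusted p = 0.0446) and -0.28 (adjusted p = 0.021).

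**Figure D4:**
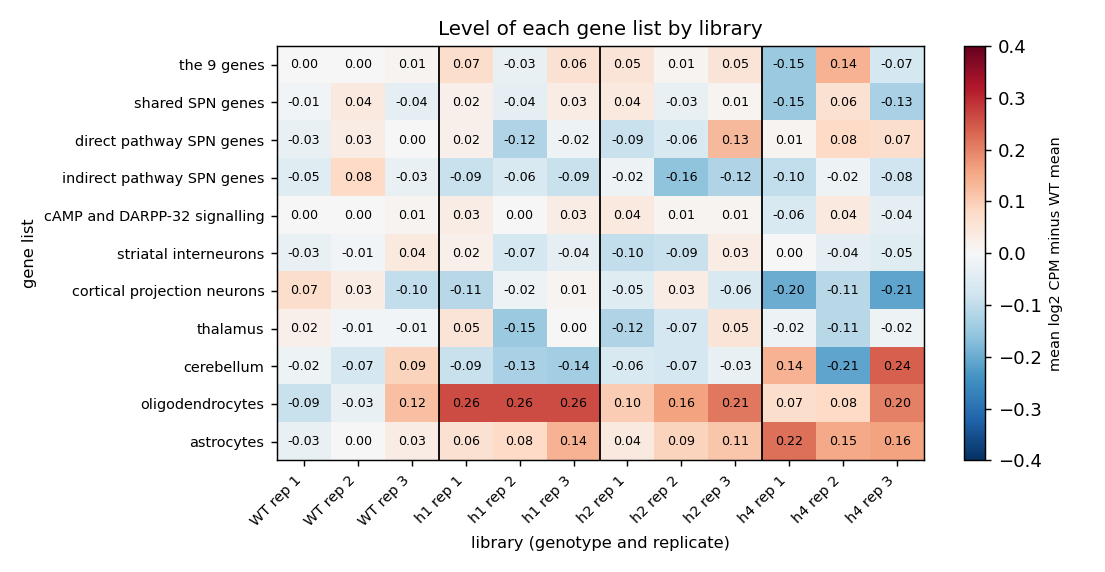
Mean log2 CPM of each gene list (rows) in each library (columns), shown as the difference from the WT mean of that list. In the 3 h4 columns the 9 genes and the 17 shared striatal projection neuron (SPN) genes are low, high and low, while the cerebellar row is high, low and high. The direct and indirect pathway rows vary less across the h4 columns (SD 0.0395 and 0.0433) than the 9 genes do (0.15).

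Pde10a was also low in h4 relative to Ppp1r1b, a comparison chosen after the values were seen. The ratio of Pde10a to Ppp1r1b CPM was 1.28, 1.27 and 1.24 for WT, 1.25, 1.29 and 1.32 for h1, 1.31, 1.28 and 1.27 for h2, and 1.06, 1.10 and 1.09 for h4. All 3 h4 mice lay below the other 9, replicate 2 included, and the mean differed from WT by -14.2% (exact permutation p = 0.1, the smallest possible; adjusted p = 0.525 over 21 ratios). Foxp1 to Ppp1r1b averaged 0.476 ± 0.03 for WT, 0.433 ± 0.013 for h1, 0.445 ± 0.017 for h2 and 0.416 ± 0.029 for h4 (SD, n = 3 each). For Rgs9 to Ppp1r1b the means were 0.346 ± 0.016, 0.315 ± 0.0019, 0.337 ± 0.013 and 0.324 ± 0.024 in the same order, lowest in h1. Both ratios were thus below WT in every mutant mean. None of these differences passed adjustment, and with 3 against 3 libraries none could pass at 0.05. Measured against the mean of the other 8 genes, Pde10a differed by -0.18 on the log2 scale between h4 and WT, again with no overlap between libraries (exact permutation p = 0.1). On that measure Ppp1r1b, the other gene of the ratio, was itself higher in h4 than in WT without overlap (0.07). The same lack of overlap with WT held for Pde10a (0.09) and Rgs9 (-0.10) in h1 and for Drd1 (0.06) and Adora2a (0.13) in h2.

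**Figure D5:**
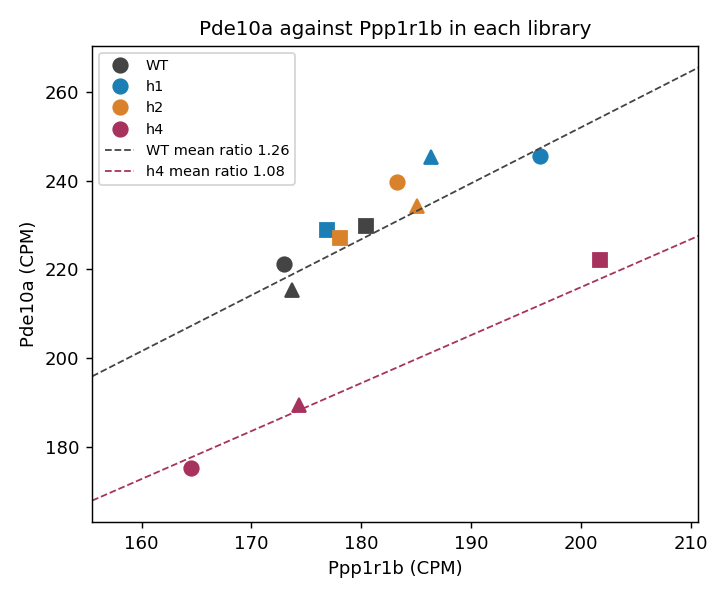
Pde10a against Ppp1r1b in CPM in the 12 libraries (symbols as replicates 1 to 3: circle, square, triangle; neither axis starts at 0); dashed lines are the mean ratios of WT (1.26) and h4 (1.08). The h4 libraries spread along their own line, below the other 9.

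The other genes of these neurons and of their signalling were read from lists. Of the 17 further genes of both types, 0 passed in h1 or h2 against WT. In h4, 2 of 17 fell and 15 of 17 had a negative fold change, with a list median of -0.08 beside 0.01 for all genes. The genes that fell were Adcy5, the adenylyl cyclase that makes most striatal cAMP (218 against 247.9 CPM, log2 fold change -0.19, SE 0.0488, adjusted p = 0.0246), and Bcl11b, a transcription factor of projection neurons (59.5 against 68.3 CPM, -0.21, SE 0.0533, adjusted p = 0.0226). Without h4 replicate 2 their log2 fold changes were -0.25 and -0.28, and 6 of 17 fell. Against h1, Adcy5, Rasd2 and Scn4b fell in h4, by 0.18, 0.20 and 0.18 on the log2 scale, and against h2, Adcy5 and Scn4b fell, by 0.18 and 0.19. Other lists moved with the h4 and h1 comparison, in which Pde10a was also lower. Of 10 oligodendrocyte genes, 6 fell in h4 against h1, led by the myelin genes Mobp (-0.27, adjusted p = 0.000953) and Mbp (-0.22, 0.00365), whereas against WT 1 of 10 rose, Opalin (0.31, 0.0359), and 0 of 10 did without h4 replicate 2. The summed CPM of that list was 14150 to 14540 in h1, 12340 to 13280 in h4 and 10950 to 12510 in WT. All 8 activity genes had a positive fold change in h4 against h1, with a median of 1.17, and Arc (1.58, 0.017) and Npas4 (1.58, 0.0165), which neuronal activity induces, passed. Their summed CPM was 207 to 296 in h1, 464 to 603 in h4 and 333 to 395 in WT. The part of these lists in the differences of the striatal genes was not tested.

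Of 7 direct pathway genes, 0 passed in any of these comparisons, and in h4 against WT 6 of 7 had a positive fold change, with Pdyn, the precursor of dynorphin, at 0.04 and the muscarinic receptor gene Chrm4 at 0.04. Of 3 indirect pathway genes measured out of 4 listed, Grik3, a kainate receptor subunit that other brain regions also express, fell in h2 (-0.23, SE 0.0496, adjusted p = 0.028) and h4 (-0.24, SE 0.0501, adjusted p = 0.00446). Its mean CPM was 91.5 for WT, 80.8 for h1, 78.4 for h2 and 77.8 for h4. The h1 difference of -0.17 did not pass (adjusted p = 0.128), and the mean of the mutants against WT did (-0.21, adjusted p = 0.00664). The orphan receptor gene Gpr6 and the transcription factor gene Sp9 had log2 fold changes of 0.02 and -0.01 in h4.

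Of 20 genes of cAMP and DARPP-32 signalling, 19 were measured, 6 of which are also among the 17. None passed in h1 or h2 against WT. In h4, Ppp1cc, a catalytic subunit of the phosphatase that DARPP-32 inhibits, rose from 151 to 172 CPM (log2 fold change 0.18, SE 0.0343, adjusted p = 0.00258), Prkar1b, a regulatory subunit of protein kinase A, fell from 561 to 517 CPM (-0.13, SE 0.0349, adjusted p = 0.0353), and Adcy5 fell as above. Without h4 replicate 2, 1 of 19 rose and 4 fell, where 4.04% of all genes were called, and these counts too are a description. Ppp1cc rose and Prkar1b fell in h4 against h1 and against h2 as well. The list median was -0.02 in h4, beside 0.01 for all genes.

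Of 8 striatal interneuron genes measured, 0 passed in the comparisons with WT. The mean log2 CPM of that list was 4.18 to 4.23 in h4 and 4.20 to 4.26 in WT. The spread of projection neuron genes in h4 was not seen in this list. RNA came from the whole brain, so the level of the list is not that of striatal interneurons alone. Slc5a7, the choline transporter gene of cholinergic neurons, fell in h4 against h1 (-0.32, adjusted p = 0.0171), and did not pass without h4 replicate 2 (-0.26, 0.0746). Dopamine neuron genes had 0 of 7 passing in the comparisons with WT, with a list mean of 2.67 to 2.90 in h4 and 2.78 to 2.94 in WT. It was 2.678 to 2.725 in h1 and 2.53 to 2.66 in h2, below every WT library. This mean weights all 7 genes alike, among them Foxa1 and En1, which had few counts. In WT, h1 and h2, mean CPM was 0.57, 0.47 and 0.35 for Foxa1 and 1.82, 1.25 and 1.28 for En1. Fold changes against WT were negative in 5 of 7 genes in h1, 7 of 7 in h2 and 4 of 7 in h4.

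Outside all lists, the genes that tracked the mean of the 9 most closely within genotypes, among tested genes averaging 5 CPM or more, were Atg4b (r = 0.939), Nckap5 (0.924), Otof (0.918), Tbc1d20 (0.913) and Rpl32 (0.912), over 12 libraries. Without h4 replicate 2 their r was 0.744, 0.724, 0.69, 0.75 and 0.629, and only 1 of the 5 stayed among the top 5 when genotype means were not removed. For single genes the closest were Hpca for Drd1 (0.924), Ripor2 for Drd2 (0.962), Rhof for Ppp1r1b (0.943), Usf1 for Adora2a (0.963), Fbxl16 for Pde10a (0.958), Atg4b for Rgs9 (0.942), Mchr1 for Penk (0.947), Ndufa9 for Tac1 (0.963) and Rasgrf2 for Foxp1 (0.954). With 12 libraries and so many candidate genes these are rankings, with no test.

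Transcript length as deposited was constant for Drd1 (3526 bases), Drd2 (1549) and Adora2a (2534). For Pde10a it was 7336 to 7444 bases in h4, above the 7246 to 7304 of every h1 and h2 library, while WT ran from 7225 to 7408 bases and overlapped both. For Rgs9 it lay between 2289 and 2410.5 bases with the genotypes overlapping.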

How the data were processed

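Polyadenylated RNA of 12 whole brains was sequenced on an Illumina HiSeq instrument from unstranded TruSeq libraries, per the labels' protocols, so a gene and its antisense partner cannot be told apart. Bowtie2 2.2.0 and RSEM 1.2.12 were used, per the submitters' processing notes; build and annotation are not given in sources used here. The authors deposited RSEM expected counts, which share read pairs among similar genes, and TPM values, which are scaled to transcript length and library. Symbols came from GENCODE M21 (GRCm38) for 37607 of 38924 identifiers. Rounded expected counts were tested with edgeR 4.0.16 (R 4.3.3) by quasi-likelihood with TMM scaling, in 1 fit over 12 libraries with 1 mean per genotype; 16493 genes passed the filter, and calls required an adjusted p under 0.05 (Benjamini-Hochberg over these). CPM are expected counts scaled to the unadjusted library total, and list levels use log2(CPM + 0.5); TMM factors, used in the fit, ran from 0.991 to 1.012. Every adjusted p is from edgeR unless another tool or test is named. The steps were tested on simulated counts. Alternatives used DESeq2 1.42.0, limma 3.58.1 on log2(TPM + 0.5), other scaling, no filter, Xist as a covariate, only the 2 groups compared, a replicate block, and each library left out in turn; 2 covariates of regional content were added after the data were seen. No library was a copy of another. The members and lists were chosen with earlier results of these data known. All 9 members are named; from other lists, called genes were named by smallest adjusted p, up to 4 per list and comparison, or else up to 2 of highest CPM, and a few further list genes (Pdyn, Chrm4, Gpr6, Sp9, Gabra6, Pcp2) were named after their values were seen. A sequence match was searched only in the RefSeq windows, and no protein sequence was used here. The value of 1 gene that the naming rule took is not reported here.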

Additional observations from a re-analysis of the deposited data

How the results depend on the processing

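Over 1260 fold changes of the 9 genes under alternatives, 1233 kept their side of the threshold, 11 lost a call and 16 gained one. Of them, 0 reversed with a call, and 102 changed sign with no call on either side. Most of the 1260 were not called in the main fit either. Leaving aside the 2 added covariates, the call of Foxp1 in h4 against WT held in 13 of 18 alternatives. That of Pde10a in h4 against h1 also held in 13 of 18. In h4 against WT, the number of the 9 genes called was 1; DESeq2 gave 2, limma on log2 TPM 0, the added covariate of the 17 striatal genes 0 and that of the cerebellar genes 2, and leaving out each library gave 0 to 3. In h4 against h1 it was 1; no filter gave 2, only the 2 groups compared 0, and leaving out each library 0 to 4. In h4 against h2 it was 0; DESeq2 gave 1, no filter 2, each added covariate 1, and leaving out each library 0 to 2. For the mean of the mutants it was 0, and 0 to 1 with each library left out. For any difference among genotypes it was 0; DESeq2 gave 1, no filter 2, the Xist covariate 1, each added covariate 1, and leaving out each library 0 to 4. The highest counts came without h4 replicate 2, or without WT replicate 3 for the mean of the mutants. The cause of these moves was not tested. Over all genes the counts moved too. In h4 against WT they ran from 152 (limma) to 1111 (without WT replicate 3), beside 751 in the main fit. Against h1 they ran from 105 (limma) to 1067 (no filter), beside 765, and against h2 from 118 to 844, beside 531. For the mean of the mutants they ran from 8 to 505, beside 181, and for any difference from 104 to 1740, beside 1100. Counts of the 9 genes under alternatives are thus no result about these genes. The number of the 9 genes whose libraries did not overlap WT was 0 in h1 and became 2 with TMM-adjusted totals, an alternative chosen after the data were seen. The mean level of the 9 genes in h2 exceeded WT by 0.038 on the log2 CPM scale and by 0.015 on log2 TPM.

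Same-numbered libraries of h1 and h2 showed no shared deviation, with correlations of -0.181, -0.141 and 0.041. With 3 libraries per genotype these values cannot tell whether the title numbers pair mice. With the number as a replicate block, 0 of the 9 genes were called in h2 against h1, as without it. Over all genes, counts of calls moved widely: 103 in h1 against WT became 0 (limma) to 236 (no filter), 112 in h2 became 11 to 348, and 751 in h4 became 152 to 1111. With 3 mice per genotype, differences within the standard errors given, about 0.05 to 0.12 on the log2 scale, were not detectable, most of all for Drd2. Differences well above the standard error could also fail to pass. Pde10a in h4 differed by -0.19 from WT (SE 0.0705, edgeR adjusted p = 0.173). From h2 it differed by -0.26 (SE 0.0705, edgeR adjusted p = 0.0702), and neither was called.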
